A study of Mus musculus with 4 samples.

Results

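The genes described here are 10 components of the mammalian circadian clock, chosen by name from the deposited gene table. They are the period genes Per1, Per2 and Per3, the cryptochrome Cry1, the repressor Ciart, the nuclear receptor genes Nr1d1 and Nr1d2, the PAR bZIP transcription factor genes Dbp and Tef, and the activator Arntl. These were 10 of 52636 genes in the table, and all 10 were among the 12320 genes that reached 1 CPM (the count scaled to library size) in any library.

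RNA was sequenced from Myc-CaP cells, which derive from a prostate tumour of the Hi-Myc transgenic mouse (strain FVB). Cells called shFAK stably carried hairpins directed at Ptk2, the gene of focal adhesion kinase (FAK), and cells called shNC a negative control hairpin. Both were given 10 µM norepinephrine or vehicle for 24 h. The groups were shFAK with norepinephrine, shFAK with vehicle, shNC with norepinephrine and shNC with vehicle, each a single library. The study addressed the effects of FAK knockdown and of norepinephrine on expression.

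In the clock, CLOCK and BMAL1, the product of Arntl, bind E-box sequences and activate the period and cryptochrome genes, whose proteins return to repress that activity. Ciart, also called Chrono, encodes another repressor of the same activator pair. Nr1d1 and Nr1d2 encode REV-ERB alpha and REV-ERB beta, which repress Arntl through ROR elements. Dbp and Tef encode activators that bind D-box sequences, and they are themselves driven through E-boxes. Per1 is in addition a known target of CREB and of the glucocorticoid receptor, and norepinephrine acts on many cells through beta-adrenergic receptors and cAMP.

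Promoter sequence is shown for Ciart and Tef, which were lower in shFAK than in shNC by over 1.5-fold in both treatments, and for Per3, the one gene here with D-box matches. The windows run from 250 bases before to 50 bases after a RefSeq transcription start (GRCm38.p6), 5′ to 3′ on the strand of the gene. Capitals mark E-box letters CACGTG in Ciart and Tef, and D-box letters TTATGTAA in Per3. The Ciart window is chr3:95882179-95882478 on the minus strand. The Tef windows are chr15:81802423-81802722 and chr15:81811164-81811463 on the plus strand. The Per3 window is chr4:151044616-151044915 on the minus strand.
Ciart: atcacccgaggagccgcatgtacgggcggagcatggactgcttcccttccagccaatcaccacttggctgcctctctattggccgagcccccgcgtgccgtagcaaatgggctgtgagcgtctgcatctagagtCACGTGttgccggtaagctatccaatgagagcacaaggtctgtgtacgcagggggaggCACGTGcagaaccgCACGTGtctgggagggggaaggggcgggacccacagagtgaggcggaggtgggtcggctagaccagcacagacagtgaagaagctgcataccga
Tef start 1: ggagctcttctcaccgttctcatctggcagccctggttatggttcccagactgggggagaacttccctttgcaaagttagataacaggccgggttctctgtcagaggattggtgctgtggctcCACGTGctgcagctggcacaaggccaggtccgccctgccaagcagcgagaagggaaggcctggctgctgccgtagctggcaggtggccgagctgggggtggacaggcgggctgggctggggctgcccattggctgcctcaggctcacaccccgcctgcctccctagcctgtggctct
Tef start 2: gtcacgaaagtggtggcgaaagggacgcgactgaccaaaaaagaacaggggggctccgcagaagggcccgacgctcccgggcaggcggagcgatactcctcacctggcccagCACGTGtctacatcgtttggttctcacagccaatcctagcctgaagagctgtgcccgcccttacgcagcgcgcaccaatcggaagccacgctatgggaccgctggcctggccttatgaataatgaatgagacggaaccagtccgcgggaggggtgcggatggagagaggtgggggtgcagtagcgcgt
Per3: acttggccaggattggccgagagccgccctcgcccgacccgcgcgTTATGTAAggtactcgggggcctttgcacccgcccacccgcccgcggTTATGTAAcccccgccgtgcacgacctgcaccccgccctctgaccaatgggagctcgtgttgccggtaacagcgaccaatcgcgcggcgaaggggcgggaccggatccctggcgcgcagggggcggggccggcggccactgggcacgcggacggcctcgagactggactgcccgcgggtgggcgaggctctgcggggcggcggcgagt

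The RefSeq table held 12 windows for 9 of the 10 genes; Per2 was not matched. Each was searched on both strands for the E-box CACGTG, the D-box TTATGTAA or TTACGTAA, the cAMP response element TGACGTCA and the ROR element core TAGGTCA. These occur in 7.15% (E-box), 1.06% (D-box), 1.79% (cAMP response element) and 2.61% (ROR core) of the 32851 windows in the table. E-box letters were in 5 of the 12 windows, from 4 genes. Ciart had 3, beginning at positions -116, -58 and -44 from its transcription start, and Tef had 1 at each start. Per1 and Cry1 had 1 each. The D-box matches of Per3 began at -205 and -158. The ROR element core was in 1 window, of Arntl, and the cAMP response element in 0. Of the 4 genes with an E-box here, Ciart and Tef were lower in both shFAK libraries than in both shNC libraries, and Per1 and Cry1 were higher. Over all genes 32.7% were lower in this way and 25.6% higher. A letter match is a description, not a binding site.

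**Figure D1:**
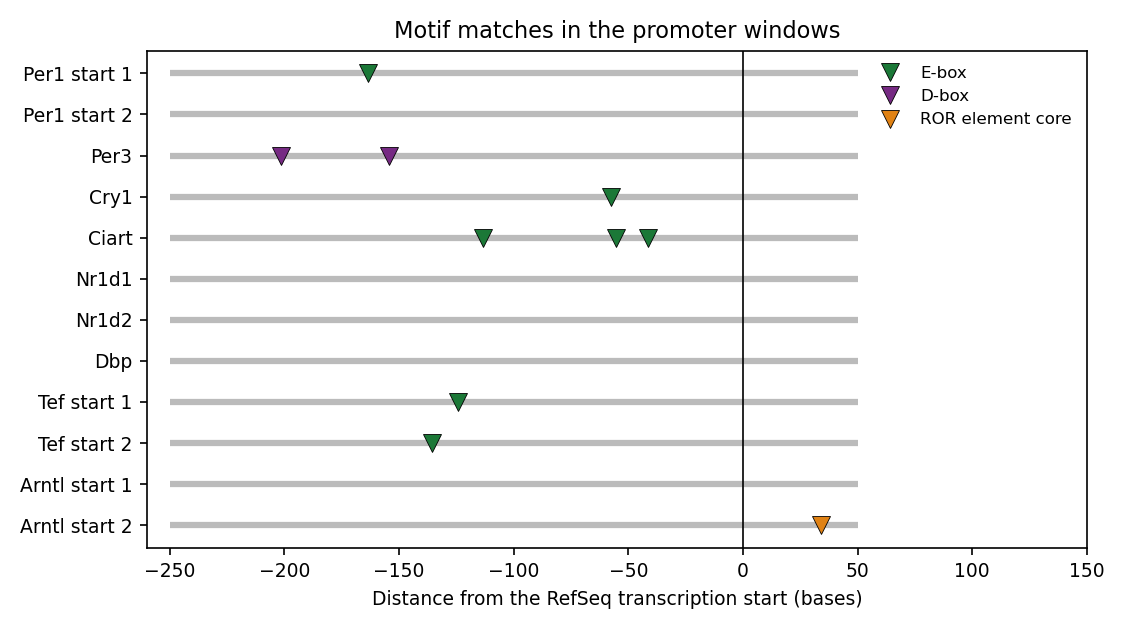
Positions of motif matches in the 12 promoter windows of 9 clock genes, as distance in bases from the RefSeq transcription start; grey bars are the windows and triangles the matches. Ciart holds 3 E-boxes, and Tef 1 at each start.

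Total counts were 23410486 to 29948640 per library. The hairpin target Ptk2 had 50.7 CPM with norepinephrine and 49.0 CPM with vehicle in shFAK cells, against 119.9 CPM with norepinephrine and 120.5 CPM with vehicle in shNC cells. The shFAK norepinephrine library stood apart, with 119 genes at 8 or more counts there and at most 2 in each other library, against 4 to 9 such genes in the others. Log2 ratios also ran with gene length, with Spearman correlations over the 12320 genes of 0.47 (shFAK over shNC, norepinephrine), 0.33 (shFAK over shNC, vehicle), -0.29 (norepinephrine over vehicle, shFAK) and -0.49 (norepinephrine over vehicle, shNC). Of the luminal epithelial markers reported here, Hoxb13 had 45.6 and 41.5 CPM in shFAK with norepinephrine and vehicle, and 50.2 and 37.2 CPM in shNC. Krt8 had 1.95 and 1.89 CPM in shFAK, and 6.27 and 5.20 CPM in shNC, while Krt18, Epcam and Cdh1 had at most 15 counts in any library. The fibroblast list, with Dcn and Lum at 0 among its 5 genes, summed to 13.1 and 13.3 CPM in shFAK with norepinephrine and vehicle, and 7.67 and 9.79 CPM in shNC. Leukocyte and endothelial lists summed to at most 1.40 CPM in any library and the basal list to at most 4.66 CPM. The neuronal list, mostly Rbfox3 and with Snap25 at 0, summed to 80.7 and 83.5 CPM in shFAK with norepinephrine and vehicle, and 77.8 and 67.0 CPM in shNC. The part of these differences in the clock values was not tested.

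In all 4 libraries Cry1 and Per1 were the most abundant of the 10 genes per length, and Dbp and Per3 the least. Levels in this order are CPM per kilobase of gene length, as a mean over the 4 libraries. Cry1 averaged 14.8 (range 13.8 to 16.0) and Per1 14.5 (13.1 to 16.1), ranges that overlap. Nr1d1 averaged 5.90, Ciart 4.82 and Nr1d2 4.25, and each of these ranges overlapped its neighbour. Tef averaged 2.89, Arntl 2.17 and Per2 2.15, again with overlapping ranges. Dbp averaged 0.894 and Per3 0.296, and their ranges overlapped neither each other nor those above. The highest of the 4 libraries was 1.90 times the lowest for Dbp, 1.89 times for Tef and 1.77 times for Ciart, against 1.12 times for Nr1d2 and 1.16 times for Cry1.

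**Figure D2:**
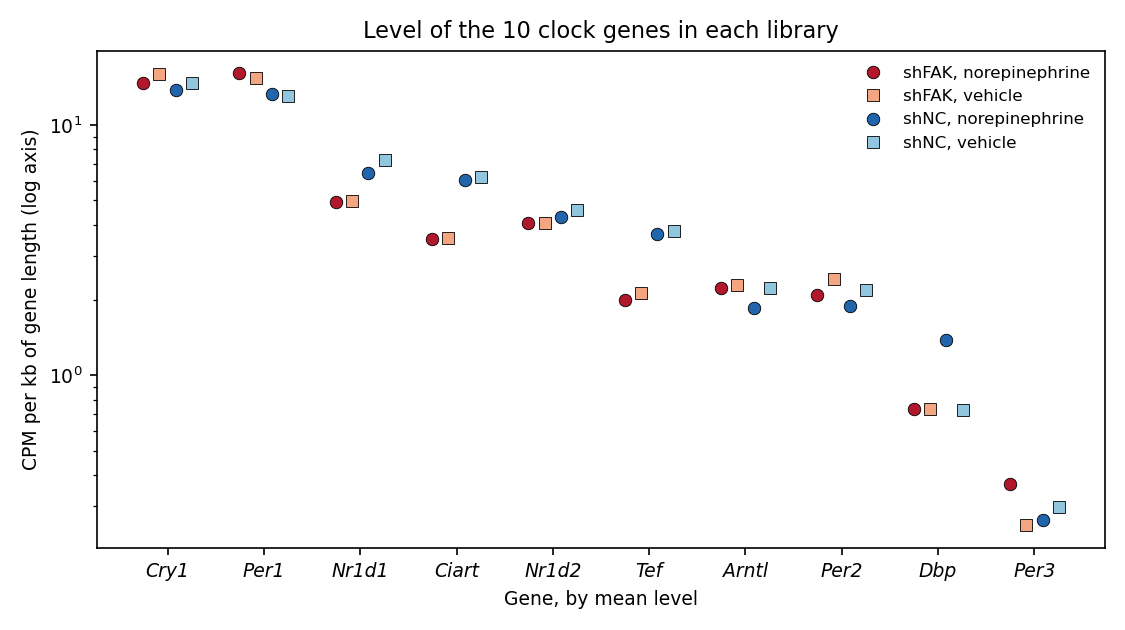
Level of each of the 10 genes in each of the 4 libraries, as CPM per kilobase of gene length on a log axis; points are single libraries. Tef and Ciart separate by hairpin, and the shNC norepinephrine library is the high point of Dbp.

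The hairpin comparison was between shFAK and shNC cells. Tef and Ciart were lower in shFAK under both treatments, at between 54.9% and 58.4% of the shNC level. Nr1d1 was lower by a smaller amount, Per1 was slightly higher, and Cry1, Per2, Nr1d2 and Arntl lay within 0.26 of zero on the log2 scale. Ratios are of CPM with a prior count of 2, and each carries an exact 99% interval that covers counting error only, since 1 library stood for each group. A gene met the size rule when it differed by at least 1.5-fold and its interval left out 0. The size rule was met on the low side by 3 of the 10 genes under norepinephrine (Tef, Ciart and Dbp), where 4.33% of all genes met it. It was met by 2 under vehicle (Tef and Ciart), where 1.62% did. Both of those met it in both treatments, as 0.877% of all genes did. None of the 10 met the rule on the high side, where 6.50% did under norepinephrine and 3.69% under vehicle. Under norepinephrine 801 genes were higher and 534 lower in all, or 1373 and 236 with library size alone. The median log2 ratio of the 10 genes was 0.02 under norepinephrine and -0.08 under vehicle, against -0.03 and 0.00 for all genes.

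Tef, a D-box activator (ENSMUSG00000022389, mm10 chr15:81802421-81826861, plus strand), had 388 counts with norepinephrine and 442 with vehicle in shFAK cells, against 758 with norepinephrine and 875 with vehicle in shNC cells. Both shFAK libraries were below both shNC libraries. The log2 ratio was -0.86 under norepinephrine (interval -1.10 to -0.63) and -0.83 under vehicle (-1.05 to -0.61). Its partner Dbp (ENSMUSG00000059824, chr7:45705088-45710203, plus strand) had 54 and 58 counts in shFAK with norepinephrine and vehicle, against 109 and 64 in shNC. The log2 ratio was -0.89 under norepinephrine (-1.57 to -0.29) and 0.01 under vehicle (-0.69 to 0.71). For Dbp the shNC norepinephrine library was high, and the other 3 libraries had 54 to 64 counts. Dbp overlaps exons of Sphk2 on the opposite strand. Sphk2 had log2 ratios of -0.28 under norepinephrine and -0.13 under vehicle. Per length, Tef was 2.73 times Dbp in shFAK with norepinephrine and 2.90 times with vehicle, against 2.65 and 5.20 times in shNC. The third mammalian PAR bZIP gene, Hlf, had 3 and 10 counts in shFAK with norepinephrine and vehicle, and 8 and 7 in shNC.

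Among the repressors, Ciart (ENSMUSG00000038550, chr3:95878503-95882251, minus strand) had 195 counts with norepinephrine and 211 with vehicle in shFAK, against 359 and 412 in shNC. Its log2 ratio was -0.78 under norepinephrine (-1.12 to -0.45) and -0.80 under vehicle (-1.13 to -0.49). The pair of shFAK libraries lay below the shNC pair. Ciart has a processed pseudogene with 1089 matching bases, Gm9176, which was not found by name among the counted genes. How reads matching both were counted is not known.

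The period genes did not share that direction. Per1 (ENSMUSG00000020893, chr11:69095217-69109960, plus strand) had 90.6 CPM with norepinephrine and 86.7 CPM with vehicle in shFAK, against 74.8 CPM and 73.7 CPM in shNC. Both shFAK libraries were above both shNC libraries, with log2 ratios of 0.28 (0.16 to 0.39) under norepinephrine and 0.23 (0.12 to 0.35) under vehicle. Per2 (ENSMUSG00000055866, chr1:91415982-91459324, minus strand) had 302 and 376 counts in shFAK with norepinephrine and vehicle, and 291 and 377 counts in shNC; its log2 ratio was 0.15 in both treatments, and both intervals held 0. Per3 (ENSMUSG00000028957, chr4:151003652-151044665, minus strand) had 87 and 64 counts in shFAK with norepinephrine and vehicle, and 67 and 84 in shNC. Its ratios were 0.46 (-0.14 to 1.10) under norepinephrine and -0.23 (-0.88 to 0.40) under vehicle, so at this depth no direction was detectable. Cry1, which encodes the strong transcriptional repressor of the loop (ENSMUSG00000020038, chr10:85131700-85185064, minus strand), had 49.3 and 53.3 CPM in shFAK with norepinephrine and vehicle, against 45.9 and 49.0 CPM in shNC. Its log2 ratios were 0.10 (-0.05 to 0.26) and 0.12 (-0.02 to 0.26).

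Of the REV-ERB genes, Nr1d1 (ENSMUSG00000020889, chr11:98767932-98775333, minus strand) had 15.2 and 15.3 CPM in shFAK with norepinephrine and vehicle, against 19.8 and 22.3 CPM in shNC. Its log2 ratio was -0.38 (-0.64 to -0.13) under norepinephrine and -0.54 (-0.78 to -0.31) under vehicle, below the 1.5-fold size in both. Nr1d1 shares 263 exon bases with Thra on the opposite strand, and the kit does not mark strand. Thra had 603 to 753 counts per library, with log2 ratios of 0.17 under norepinephrine and 0.38 under vehicle. The part of shared reads in the Nr1d1 counts was not tested. Nr1d2 (ENSMUSG00000021775, chr14:18204054-18239127, minus strand) had 542 and 581 counts in shFAK with norepinephrine and vehicle, against 610 and 726 counts in shNC. Its log2 ratios were -0.07 and -0.16, with both intervals including 0. Nr1d2 too has a copy, AC170187.1, with 1331 matching bases, also not found by name among the counted genes. Their target Arntl (ENSMUSG00000055116, chr7:113207465-113314126, plus strand) had 16.9 and 17.3 CPM in shFAK with norepinephrine and vehicle, against 14.0 and 16.9 CPM in shNC. Its ratios were 0.26 (-0.01 to 0.53) and 0.04 (-0.21 to 0.28).

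**Figure D3:**
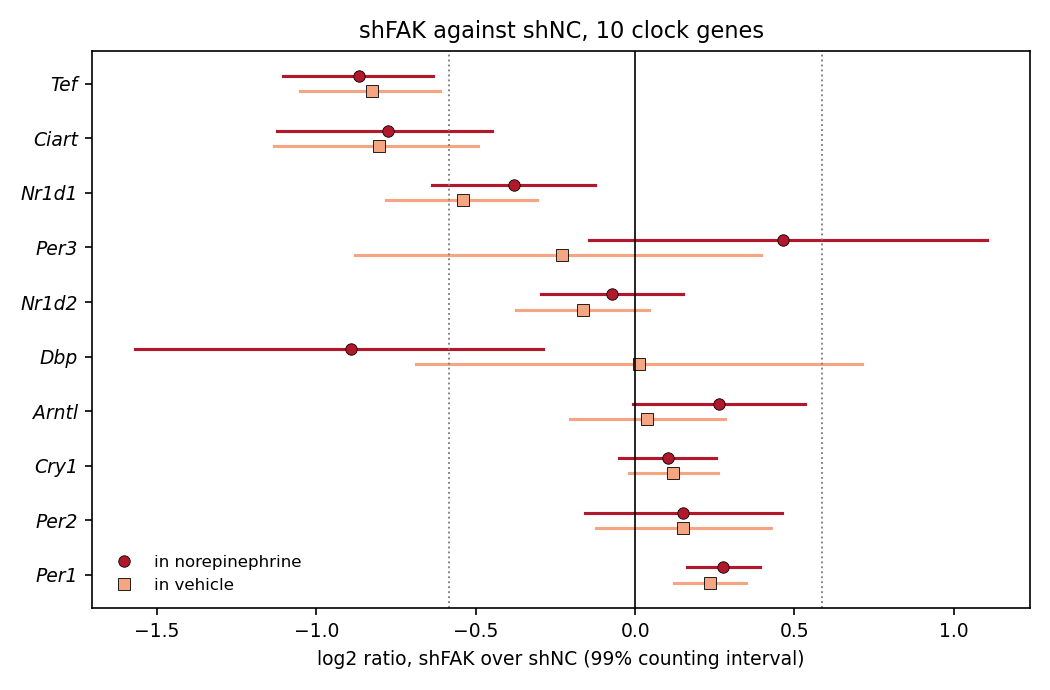
Log2 ratio of shFAK over shNC for the 10 genes under norepinephrine (circles) and vehicle (squares), with 99% counting intervals; dotted lines are 1.5-fold. Tef and Ciart lie past the line in both treatments, and Dbp under norepinephrine alone.

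The counting interval left out 0 on the low side in 4 of the 10 genes under norepinephrine, where 30.3% of all genes did, and in 3 under vehicle, where 21.3% did. On the high side it did so for Per1 alone in each treatment, where 23.6% did under norepinephrine and 20.8% under vehicle. Both shFAK libraries were below both shNC libraries in 4 genes (Tef, Ciart, Nr1d1 and Nr1d2), as in 32.7% of all genes, and above in 2 (Per1 and Cry1), as in 25.6%. These counts are near the background.

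The edgeR quasi-likelihood test of an additive hairpin and treatment model used the 4 libraries together. Its only error was the departure from additivity, pooled over genes. With Benjamini-Hochberg adjustment over 12320 genes, 3 of the 10 fell and 1 rose in shFAK, against 18.2% and 16.8% of all genes. Tef fell by 0.85 on the log2 scale (SE 0.10, adjusted p = 6.72e-15), Ciart by 0.80 (SE 0.12, adjusted p = 2.55e-09) and Nr1d1 by 0.46 (SE 0.10, adjusted p = 8.53e-05). Per1 rose by 0.26 (SE 0.091, adjusted p = 0.0174). With a DESeq2 Wald test the Nr1d1 and Per1 calls were lost (adjusted p 0.0883 and 0.0861), as at a 1.2-fold test threshold (0.0691 and 0.722), and with the gene length trend removed the Per1 call was (0.0552). Dbp was at -0.48 with an adjusted p of 0.108, and the other 5 had adjusted p from 0.286 to 0.716. This p measures no variation between cultures or between lines, and the hairpin cannot be told apart from any other difference between the shFAK and shNC lines. In these bulk samples fewer cells of a type and less RNA per cell cannot be told apart. With 1 time point, a change of level and a shift of clock phase cannot be told apart either.

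Ratios within a library do not depend on its scaling. Per length, Nr1d1 was 2.20 times Arntl in shFAK with norepinephrine (1.83 to 2.65) and 2.16 times with vehicle (1.80 to 2.58), against 3.44 (2.89 to 4.11) and 3.23 (2.77 to 3.77) times in shNC. Tef was 0.125 and 0.138 of Per1 in shFAK with norepinephrine and vehicle, against 0.276 and 0.289 in shNC. Ciart was 0.218 and 0.230 of Per1 in shFAK, against 0.454 and 0.473 in shNC. In each of these 3 ratios the shFAK intervals lay below the shNC intervals in both treatments. Their numerators were already lower in shFAK above, so these ratios restate those values, and the gene length trend can still enter them. The intervals of Cry1 over Per1 overlapped between the lines in both treatments. Those of Dbp over Per1 overlapped under vehicle (0.048 in shFAK and 0.056 in shNC) but not under norepinephrine (0.046 and 0.104). Summed over all 10 genes, the level was 235.7 and 238.2 CPM in shFAK with norepinephrine and vehicle, against 237.9 and 248.2 CPM in shNC.

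The norepinephrine comparison asked what 24 h of the agonist did in each line. Of the 10 genes, Dbp in shNC cells had the largest ratio. In shFAK cells none of the 10 met the size rule, where 1.57% of all genes did in either direction. In shNC cells 1 did, on the high side, where 1.68% of all genes did and 3.72% did in either direction. This was Dbp, with 4.14 CPM with norepinephrine and 2.18 CPM with vehicle in shNC cells, a log2 ratio of 0.91 (0.33 to 1.54) on 109 and 64 counts. In shFAK cells Dbp had 2.19 CPM with norepinephrine and 2.20 CPM with vehicle, a log2 ratio of 0.00 (-0.73 to 0.73). Dbp shares 539 exon bases with Sphk2 on the opposite strand, and Sphk2 was at a log2 ratio of 0.18 in shNC cells. Sphk2 had 947 to 1229 counts per library, far more than Dbp. The part of shared reads in the Dbp counts was not tested.

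Per1 did not differ detectably after norepinephrine in either line, with log2 ratios of 0.06 (-0.05 to 0.17) in shFAK and 0.02 (-0.10 to 0.14) in shNC. These intervals cover counting error at the main scaling only, so they set no bound on a response of Per1. Over the alternative settings its ratio ran from -0.06 to 0.11 in shFAK. In shNC it ran from -0.04 to 0.09, all at this 1 time point. Per2 was at -0.21 (-0.51 to 0.08) in each line, and both intervals held 0. Arntl was at -0.04 (-0.30 to 0.21) in shFAK and -0.26 (-0.53 to -0.01) in shNC, the only interval on the low side that left out 0, as 22.1% of all genes did there. Per3 was at 0.53 (-0.08 to 1.18) in shFAK and -0.16 (-0.80 to 0.46) in shNC. Tef, Ciart, Nr1d1, Nr1d2 and Cry1 lay between -0.17 and 0.00 in both lines. Both norepinephrine libraries were below both vehicle libraries in Per2 and Arntl, as in 19.5% of all genes.

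**Figure D4:**
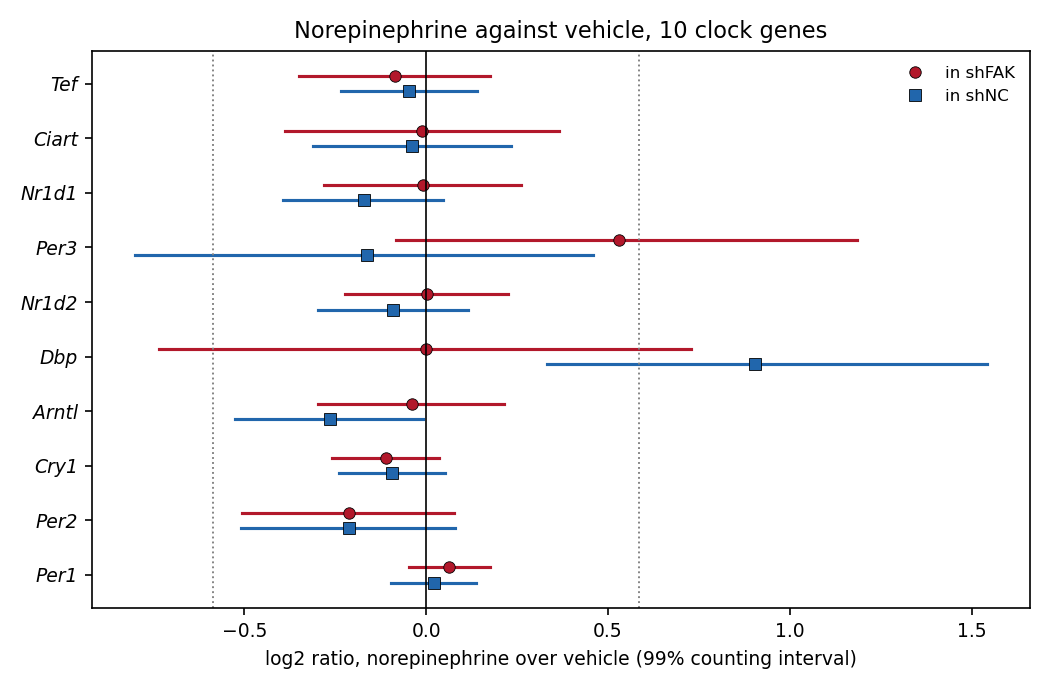
Log2 ratio of norepinephrine over vehicle for the 10 genes in shFAK (circles) and shNC (squares), with 99% counting intervals; dotted lines are 1.5-fold. Only Dbp in shNC lies past the line, at 0.91.

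In the additive model 0 of the 10 genes passed for norepinephrine with edgeR, against 11.6% of all genes; at an unadjusted p under 0.05 there was 1, Dbp (log2 0.52, SE 0.24, adjusted p = 0.149). DESeq2 gave 0 at an unadjusted p under 0.05; it gave no adjusted p for 8 of the 10 genes, so its count of 0 calls covers the other two. The difference of the responses, shFAK minus shNC, met the size rule in none of the 10 genes, against 1.79% of all genes. For Dbp it was -0.91 with an interval that reached 0 (-1.82 to 0.00), and for Per3 0.69 (-0.17 to 1.55). A hairpin ratio and a norepinephrine ratio share libraries, so the Dbp values above all rest on the same shNC norepinephrine library.

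Of 23 other clock genes, 17 passed the filter. Npas2, Arntl2, Bhlhe41, Rorb, Hlf and Fbxl21 had at most 10 counts in any library. The size rule was met in the hairpin comparison by Rora on the high side and Por on the low side in both treatments, and by Usp2 on the high side under vehicle. None met it for norepinephrine. Rora, a receptor that activates Arntl through the element REV-ERB represses, had 6.30 and 5.45 CPM in shFAK with norepinephrine and vehicle, against 2.58 and 3.19 CPM in shNC. Its log2 ratio was 1.26 (0.74 to 1.86) under norepinephrine and 0.76 (0.27 to 1.28) under vehicle (edgeR adjusted p = 1.58e-06). Of the genes of the Arntl repressors, Nr1d1 was lower in shFAK but did not meet the size rule. Nr1d2 was at -0.07 under norepinephrine and -0.16 under vehicle. Arntl itself did not pass, and whether these levels bear on it was not tested. Por, which encodes the electron donor of cytochrome P450 enzymes, had 147.2 and 156.7 CPM in shFAK, against 242.3 and 236.3 CPM in shNC (log2 -0.72 and -0.59, adjusted p = 2.66e-10).

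Usp2, a ubiquitin protease and clock output, had 253 and 320 counts in shFAK with norepinephrine and vehicle, and 208 and 235 in shNC (log2 0.38 and 0.60, adjusted p = 0.000673). The kinase gene Wee1 had log2 ratios of 0.28 in both treatments (adjusted p = 0.00765). The Usp2 and Wee1 calls were lost with DESeq2 (0.13 and 0.0697) and at a 1.2-fold threshold (0.0833 and 0.606). In all, 3 of the 17 rose and 1 fell for the hairpin with edgeR, where 16.8% of all genes rose and 18.2% fell. With the length trend removed 4 of the 17 were higher and 6 lower, and with library size alone 6 and 1. For norepinephrine 1 of the 17 fell, where 11.6% of all genes passed in either direction. This was Clock, which encodes the partner of BMAL1. It had 56.6 CPM with norepinephrine and 69.2 CPM with vehicle in shFAK, and 46.3 and 64.5 CPM in shNC (log2 -0.29 and -0.48, adjusted p = 0.00067). This call was lost with the gene length trend removed (0.111), with the length and GC trend removed (0.371), with DESeq2 (0.115), and at a 1.2-fold threshold (0.747). Usp2 was at log2 ratios of -0.24 in shFAK and -0.02 in shNC for norepinephrine and did not pass.

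**Figure D5:**
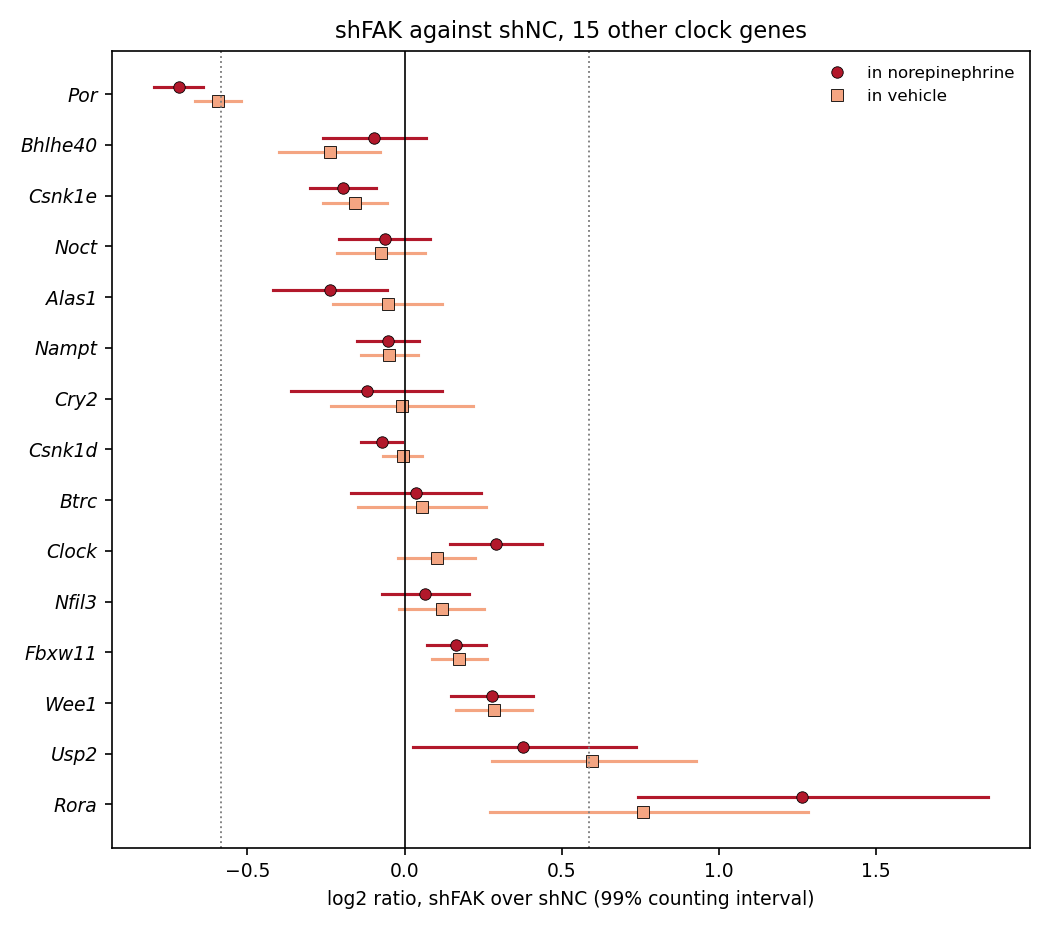
Log2 ratio of shFAK over shNC for 15 of the 17 other clock genes under norepinephrine (circles) and vehicle (squares), with 99% counting intervals; dotted lines are 1.5-fold. Rora is past the line on the high side and Por on the low side in both treatments.

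Because Per1 responds to cAMP and glucocorticoids, 7 other genes of those pathways were set beside it. For norepinephrine 1 of the 7 passed, where 11.6% of all genes did in either direction. It rose, and was Sik1, a kinase gene induced by CREB, with 72.8 CPM with norepinephrine and 59.3 CPM with vehicle in shFAK, and 55.3 and 47.1 CPM in shNC (log2 0.30 and 0.23, edgeR adjusted p = 0.03). That call was lost with DESeq2 (0.212), without a filter (0.103), at a 1.2-fold threshold (1) and with the length and GC trend removed (0.185). For the hairpin Fos and Sik1 rose and Nr4a1 fell, where 16.8% of all genes rose and 18.2% fell; the Sik1 call was lost at a 1.2-fold threshold (adjusted p 0.244). Fos, an immediate early gene, had 119 and 157 counts in shFAK with norepinephrine and vehicle, against 64 and 50 in shNC (log2 0.97 and 1.76, adjusted p = 1.17e-09). The orphan receptor gene Nr4a1 had 289 and 290 counts in shFAK, against 571 and 581 in shNC (log2 -0.88 and -0.84, adjusted p = 9.21e-14). Its log2 ratios were close to those of Tef and Ciart. Sgk1 was at 0.13 and 0.11 for the hairpin, and Fkbp5 at -0.16 and -0.11 and Tsc22d3 at -0.19 and -0.05 for norepinephrine in shFAK and shNC.

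Genes with the most similar profile over the 4 libraries were sought among 9191 protein-coding genes by root mean square distance of centred log2 CPM. For the mean of Dbp and Tef they were Krt7 (0.029), Lsm7 (0.035) and Ppih (0.036). Neither gene has that mean profile by itself, since Tef separated by hairpin and Dbp was high in the shNC norepinephrine library alone. For Nr1d1 and Nr1d2 they were Stambp (0.0051), Pex3 (0.0085) and Fam110c (0.017), and for the 3 period genes Ndor1 (0.021), Hsdl2 (0.022) and Clcn2 (0.023). Likeness over 4 points is a description, with no test.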

How the data were processed

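The authors deposited raw counts per gene for 4 libraries, 1 per group. The build was mm10 and the tools named were HISAT2 2.0.5 and featureCounts 1.5.0-p3, per the submitters' processing notes. Its annotation, strand setting and multi-mapping rule are not given in the sources used here.

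CPM used TMM factors of edgeR 4.0.16 (R 4.3.3), a prior count of 2 for ratios, and a filter of CPM of at least 1 in at least 1 library. Pair ratios have exact 99% Clopper-Pearson intervals and differences of ratios a normal approximation; they cover counting error only, and PCR reads are not independent molecules. The additive edgeR model had 1 residual degree of freedom. In the main fit the error was pooled over genes, with no weight on a gene's own departure. SEs were derived from its p-values. Copies were found with minimap2 2.31-r1302 (at least 95% identity over 100 bases, GENCODE). The computations were tested on simulated data. The members, lists and named-gene rule (those meeting the size rule, and the 4 with the largest mean ratio in each list) were chosen with earlier results of these data known; some genes of the lists are not reported here. Alternatives were other scalings, filters, prior counts, thresholds, DESeq2 1.42.0, and, added after seeing the data, a length and GC trend.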

Additional observations from a re-analysis of the deposited data

How the results depend on the processing

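Of 500 pair and difference values of the 10 genes over the alternatives, 494 stayed as reported and 6 moved. A value counted as stayed when it lay within a counting interval of the main ratio, which is wide at low counts. The changed filters and the 2-fold rule do not alter a gene's ratio, so their values stayed by construction. This tally therefore covers ratios, not size rule calls. Of 168 additive values, 163 kept their call and 5 lost it. Under a 2-fold rule, 0 of the 10 genes were lower in shFAK in either treatment, and Dbp no longer counted as higher after norepinephrine in shNC (0). Dbp also dropped out, leaving 0, under a CPM filter of 5. With a prior count of 0.5, 1 difference of responses (Dbp) met the rule. The 1 additive call on the high side, Per1, became 0 with DESeq2, with a 1.2-fold test threshold (adjusted p 0.722) and with the length trend removed. Nr1d1 was lost with DESeq2 and at 1.2-fold (0.0691). Btrc turned to -0.23, against 0.05, with the length trend removed, and was then called lower (adjusted p 0.0379). The cause was not tested for any of these. Tef ranged over the alternatives from -1.05 to -0.73 under norepinephrine and -0.91 to -0.78 under vehicle, and Ciart from -0.80 to -0.63 and -0.83 to -0.74.

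Over all genes, the additive hairpin count was 4317, against 1671 with DESeq2 and 1055 at 1.2-fold; the norepinephrine count was 1429, against 91 with DESeq2, 91 at 1.2-fold, 948 without a filter, 674 with the length trend and 271 with the length and GC trend removed. With library size alone the hairpin split was 2901 higher and 1201 lower, against 2074 and 2243, and the median of all genes under norepinephrine moved to 0.11. No paired analysis was possible because each group had 1 library and so no replicate numbers to pair; the additive model compares the hairpins within each treatment. Leaving out a library left no residual degrees of freedom. Depth limits Dbp and Per3, with 54 to 109 counts.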
